A study of Mus musculus with 6 samples.

Results

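The insulin-like growth factor (IGF) family was examined in GFP-sorted cells of injured mouse kidney: 2 ligands, 2 receptors and 6 binding proteins. The 10 genes (Igf1, Igf2, Igf1r, Igf2r and Igfbp2 to Igfbp7) were chosen by gene symbol from the 31815 genes of the count table. Each symbol was found on 1 row, and all 10 passed the filter on low counts. The cells came from cortex and outer medulla of male mice aged 9 to 12 weeks, of genotype Axin2CreERT2/+:R26RtdT/+:Acta2-GFP, after ischemia reperfusion surgery on both kidneys. Every animal had this surgery and received tamoxifen on days 2 and 4, and the sort was on day 6. The tdT+GFP+ cells carry the red label and the green reporter, and the tdT-GFP+ cells carry the green reporter alone. Both populations were taken from kidneys 1, 2 and 3, which gives 3 libraries a group.

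The red label reports past activity of the Axin2 gene, a Wnt feedback target, around the tamoxifen doses, and not activity at the sort. A cell that used Axin2 without recombining its reporter is sorted as tdT-GFP+. The green reporter follows Acta2, a gene used by myofibroblasts and also by the smooth muscle of vessels. Library totals ran from 26919514 to 33029933 counts for tdT+GFP+ cells and from 25697348 to 31337198 for tdT-GFP+ cells. Levels are given as CPM, counts per 1000000 counts of a library, with library sizes scaled by TMM, a method that corrects for differences in RNA composition. Fold changes are tdT+GFP+ over tdT-GFP+, so negative log2 values mean lower in tdT+GFP+ cells. Adjusted p-values are from edgeR's quasi-likelihood test with Benjamini-Hochberg adjustment over all genes tested.

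IGF1 and IGF2 are secreted peptides related to insulin that drive growth and survival through IGF1R, a receptor tyrosine kinase at the cell surface. IGF2R does not signal in this way: it takes IGF2 up for breakdown in lysosomes and also sorts lysosomal enzymes that carry mannose 6-phosphate. The binding proteins hold the ligands in tissue and blood, and proteases that cut them set ligand free. In kidney and other organs, mesenchymal cells are a known source of ligands and binding proteins.

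The binding proteins are related in sequence, and the stretch shown here marks how the members differ. IGFBP2, IGFBP3, IGFBP4 and IGFBP5 share a motif in the N-terminal domain that holds the IGF contact surface. In it a glycine and a cysteine are followed by a glycine, a cysteine pair, a pair of variable residues and another cysteine. Below are the 24 coding bases of this motif from the annotated mouse transcripts (GENCODE M21, GRCm38), 5′ to 3′, with the 4 cysteine codons in capitals.
Igfbp2: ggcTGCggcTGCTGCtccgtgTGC
Igfbp3: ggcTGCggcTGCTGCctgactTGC
Igfbp4: ggcTGCggtTGTTGCgccactTGC
Igfbp5: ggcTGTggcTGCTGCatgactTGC
Igfbp7: gcgTGCgggTGCTGCccggtgTGT
The stretch begins at codon 67 in Igfbp2, 68 in Igfbp3, 52 in Igfbp4, 51 in Igfbp5 and 56 in Igfbp7, counted from the start codon. The 4 cysteine codons were in place in Igfbp7 too, but its first codon was not a glycine codon. No stretch of this form was found in the Igfbp6 coding sequence, which has 16 cysteine codons, against 18 to 20 in the other 5. IGFBP7 is known to bind IGFs weakly, and IGFBP6 is known to prefer IGF2. IGFBP2 carries an arginine-glycine-aspartate triplet that can bind integrins, and Igfbp2 was the only one of the 6 coding sequences with this triplet.

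None of the 10 genes differed past the threshold between the populations. Of the 10, 0 had an adjusted p under 0.05, where edgeR called 0% of the 15462 genes tested. DESeq2 also called 0 of the 10, against 1.93% of the 14559 genes it adjusted, and 0 again with the kidney as a block, against 1.95%. At an unadjusted p under 0.05 there was 1 gene, Igf2, lower in tdT+GFP+ cells, where 6.97% of all genes were lower and 10.7% met this level in either direction. The log2 fold changes were negative for 8 genes and positive for 2, with a median of -0.03 and quartiles of -0.24 and -0.01. Of the negative ones, Igf1r, Igfbp3, Igfbp6 and Igfbp7 lay between -0.04 and -0.01, and each turned sign in other settings. Over all genes tested 7718 were positive and 7744 negative, with a median of -0.0004 and quartiles of -0.19 and 0.13. The spread between libraries, given for each gene below, sets how firmly each comparison holds.

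**Figure D1:**
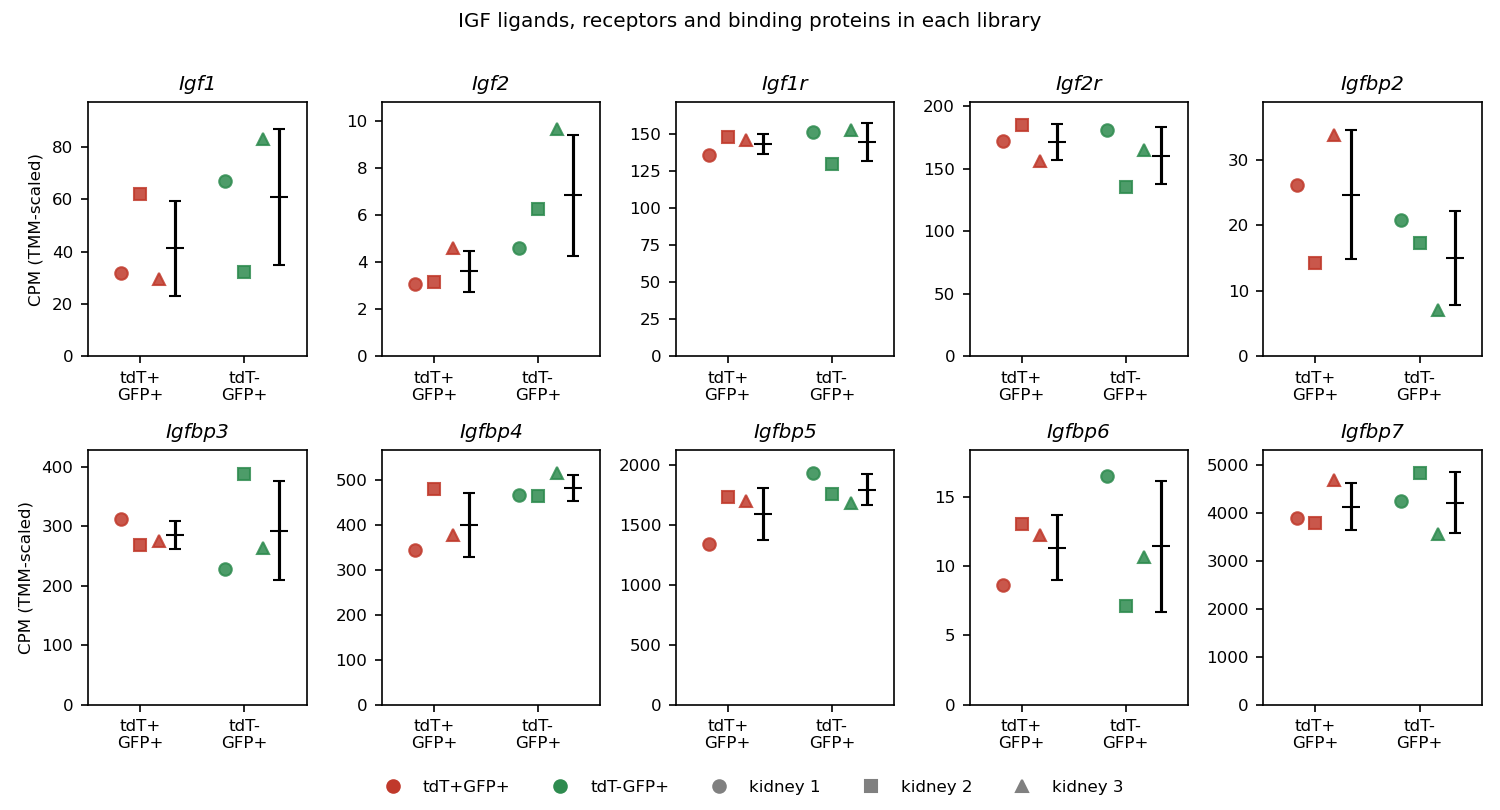
CPM on TMM-scaled library sizes (y axis, each panel from 0) of the 10 genes in each library, tdT+GFP+ in red and tdT-GFP+ in green, with a symbol per kidney and black bars for the mean and SD of 3 libraries. The groups overlap in 9 panels, and in the Igf2 panel the tdT+GFP+ values end at 4.60 CPM and the tdT-GFP+ values begin at 4.61 CPM.

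Igfbp7 was by far the most abundant member. To compare genes, CPM were divided by the annotated exon length in kb. On this scale Igfbp7 averaged 3415 ± 407 CPM per kb in tdT+GFP+ cells and 3489 ± 525 in tdT-GFP+ cells (SD, n = 3 each). It ranked 6 among the genes tested that have an annotated length, and 14 by CPM. Igfbp5 followed with 265 ± 36.0 CPM per kb in tdT+GFP+ cells and 299 ± 21.4 in tdT-GFP+ cells. The ranges of these genes did not overlap in either population.

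Igfbp4 and Igfbp3 held the next places and did not differ from each other beyond their spread. Igfbp4 had 90.6 ± 16.0 CPM per kb in tdT+GFP+ cells and 109 ± 6.50 in tdT-GFP+ cells. Igfbp3 had 91.1 ± 7.46 in tdT+GFP+ cells and 93.5 ± 26.7 in tdT-GFP+ cells, and each of these genes was the higher one in 3 libraries. Then came the receptor gene Igf2r, with 18.4 ± 1.55 CPM per kb in tdT+GFP+ cells and 17.2 ± 2.48 in tdT-GFP+ cells.

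Igfbp2, Igfbp6 and Igf1r stood close together at the next level, and no neighbours in that order were apart in all libraries. Igfbp2 averaged 13.3 ± 5.33 CPM per kb in tdT+GFP+ cells and 8.14 ± 3.88 in tdT-GFP+ cells. Igfbp6 averaged 10.2 ± 2.12 CPM per kb in tdT+GFP+ cells and 10.3 ± 4.26 in tdT-GFP+ cells. Igf1r averaged 8.53 ± 0.392 CPM per kb in tdT+GFP+ cells and 8.61 ± 0.764 in tdT-GFP+ cells. The ligand genes were lowest by the mean over all libraries, though in tdT-GFP+ library 3 Igf1 (8.39 CPM per kb) lay above Igfbp2 (3.79). Igf1 averaged 4.16 ± 1.82 CPM per kb in tdT+GFP+ cells and 6.14 ± 2.62 in tdT-GFP+ cells. Igf2 averaged 0.630 ± 0.152 CPM per kb in tdT+GFP+ cells and 1.19 ± 0.449 in tdT-GFP+ cells, and lay below Igf1 in 6 of 6 libraries.

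**Figure D2:**
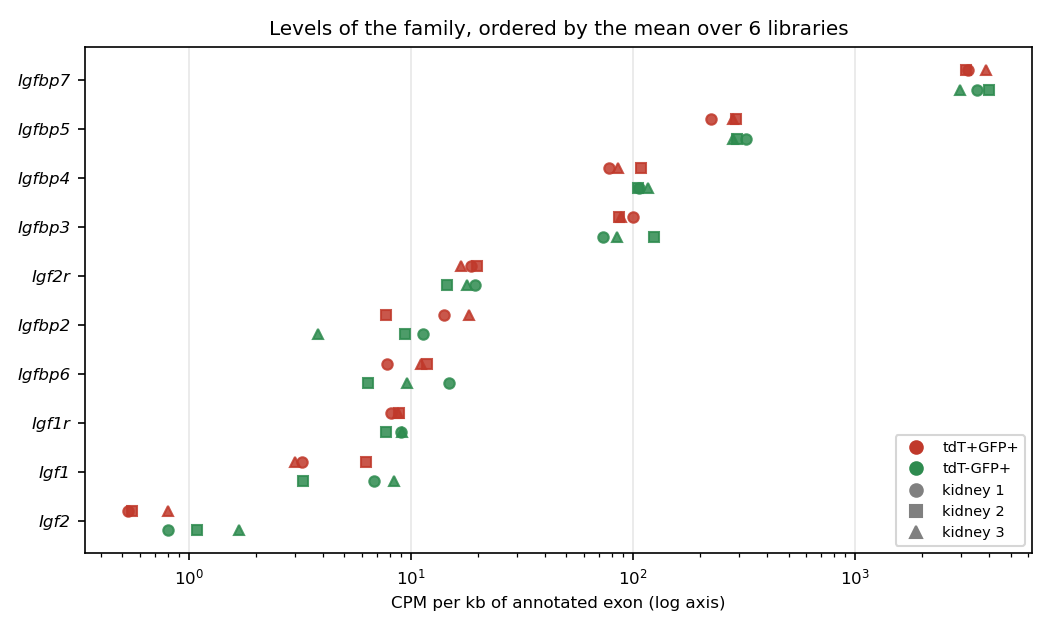
CPM per kb of annotated exon (x axis, log scale) of the 10 genes in 6 libraries, ordered by the mean over all libraries, with tdT+GFP+ in red above tdT-GFP+ in green and a symbol per kidney. Igfbp7 lies between 2947 and 3996, and Igf2 between 0.533 and 1.68.

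The binding protein transcripts outnumbered the ligand transcripts in every library. Summed over the 6 genes, the binding proteins took 0.588%, 0.622% and 0.692% of all counts in tdT+GFP+ libraries 1, 2 and 3, against 0.672%, 0.766% and 0.634% in tdT-GFP+ libraries 1, 2 and 3. Igfbp7 made up 85.6% to 88.9% of the binding protein CPM per kb over the 6 libraries. The ratio of binding proteins to ligands in CPM per kb was 968, 536 and 1149 in tdT+GFP+ libraries and 535, 1039 and 342 in tdT-GFP+ libraries. Without Igfbp7 the ratio was 112, 73.9 and 128 in tdT+GFP+ libraries and 69.6, 123 and 49.1 in tdT-GFP+ libraries. Both ratios overlapped between the populations. Igf1 made up 85.5% ± 6.53 of the ligand CPM per kb in tdT+GFP+ cells, against 82.5% ± 7.21 in tdT-GFP+ cells (SD, n = 3 each).

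Igf2, the fetal growth ligand, was the family's least abundant gene and, over all 6 libraries, had the largest fold change (ENSMUSG00000048583.16, GRCm38 chromosome 7, 142650766 to 142666816, minus strand). It had 100, 98 and 121 counts in tdT+GFP+ libraries 1, 2 and 3, against 140, 167 and 260 counts in tdT-GFP+ libraries 1, 2 and 3. In CPM these were 3.05, 3.16 and 4.60 in tdT+GFP+ cells and 4.61, 6.24 and 9.64 in tdT-GFP+ cells. The highest tdT+GFP+ library, from kidney 3, all but met the lowest tdT-GFP+ library, from kidney 1.

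For Igf2 the edgeR estimate on the log2 scale was -0.92 (SE 0.32), with a 95% interval from -1.68 to -0.16 and an adjusted p of 0.438, so it did not pass the threshold. The unadjusted edgeR p was 0.0240, and 0.00856 when the kidney was a block term (adjusted p = 0.414). Igf2 was lower in tdT+GFP+ cells in 3 of 3 kidneys, with log2 ratios of -0.60, -0.98 and -1.07. As the groups did not overlap on this scaling, any pairing gives that sign, so it is no separate evidence. Of all genes tested, 17.1% were lower in all 3 kidneys, and 8.6% were lower with no overlap between the groups. The missing overlap depended on the scaling: on raw library totals tdT+GFP+ library 3 had 4.49 CPM and tdT-GFP+ library 1 had 4.47 CPM. Without tdT-GFP+ library 3 the log2 fold change was -0.59 (adjusted p = 0.790). Without tdT+GFP+ library 2 it was -0.84 and without both libraries of kidney 2 it was -0.91, and in these settings Igf1 and Igfbp2 had larger fold changes than Igf2.

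Igf2 is imprinted and shares its locus with several transcripts. The antisense gene Igf2os had 0, 0 and 1 counts in tdT+GFP+ libraries and 2, 1 and 1 in tdT-GFP+ libraries. The model Gm49394, which overlaps Igf2 on the same strand, had 7 counts in tdT+GFP+ library 2 and 0 in the other libraries. Few reads were thus assigned to the genes that overlap Igf2. H19, the noncoding RNA expressed from the other parental copy of the locus, averaged 0.327 ± 0.260 CPM in tdT+GFP+ cells, against 0.576 ± 0.385 in tdT-GFP+ cells (log2 fold change -0.86, SE 0.74, adjusted p = 0.638).

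Igf1, the more abundant of the ligand genes, varied widely inside both groups (ENSMUSG00000020053.18, chromosome 10, 87858265 to 87937042, plus strand). It had 32.0, 61.9 and 29.7 CPM in tdT+GFP+ libraries 1, 2 and 3, against 67.0, 32.4 and 83.1 CPM in tdT-GFP+ libraries 1, 2 and 3. One library in each group went against the rest of its group: tdT+GFP+ library 2 was high and tdT-GFP+ library 2 was low, both labelled as kidney 2. The log2 ratio within kidneys was -1.07 in kidney 1, 0.94 in kidney 2 and -1.49 in kidney 3.

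Over all libraries Igf1 had a log2 estimate of -0.56, with a 95% interval from -1.56 to 0.44 (SE 0.42, adjusted p = 0.597), and the groups overlapped. It was -1.29 without both libraries of kidney 2 (adjusted p = 0.109) and -0.08 without both of kidney 3. The other library removals that moved it by over 1.5 times gave -0.98 without tdT+GFP+ library 2, -0.87 without tdT-GFP+ library 2, -0.27 without tdT-GFP+ library 3, -0.36 without tdT+GFP+ library 3 and -0.31 without both libraries of kidney 1. The antisense gene Igf1os had at most 2 counts in any library.

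**Figure D3:**
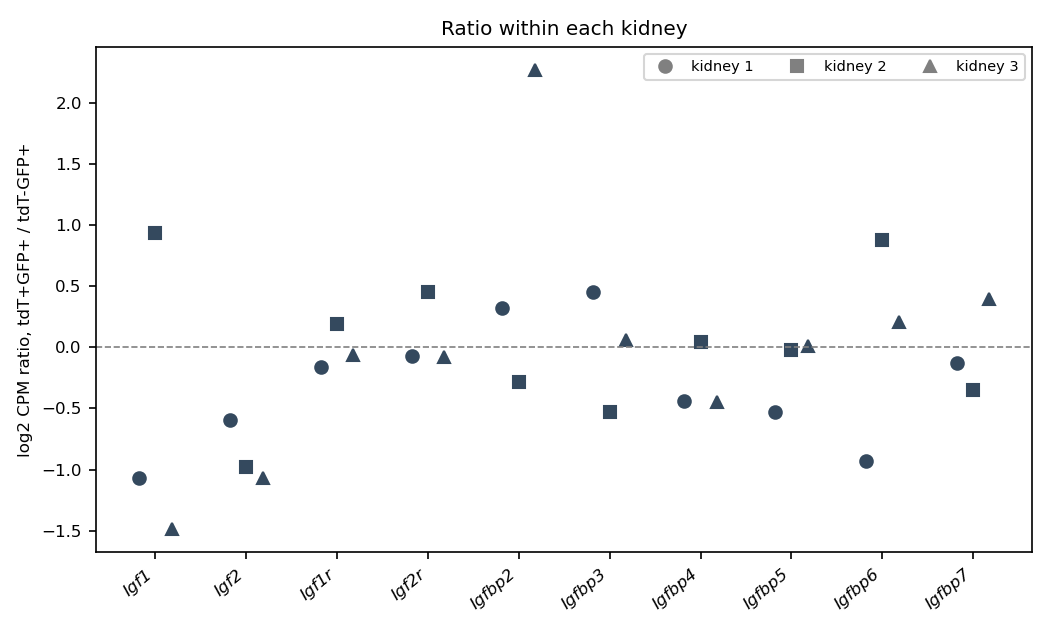
Log2 ratio of CPM in tdT+GFP+ over tdT-GFP+ cells within each kidney (y axis) for the 10 genes, with a symbol per kidney. By the kidney numbers of the labels, Igf2 is the 1 gene of 10 with the same sign in all 3 kidneys, against 32.5% of all genes tested. As its groups do not overlap on this scaling, any pairing gives that sign. Igfbp2 has the widest single ratio, 2.27 in kidney 3.

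The gene for the signalling receptor, Igf1r, was nearly level between the populations and among libraries (ENSMUSG00000005533.10, chromosome 7, 67952827 to 68233668, plus strand). It had 136, 148 and 146 CPM in tdT+GFP+ libraries and 152, 130 and 153 CPM in tdT-GFP+ libraries. The spread within groups was 4.60% of the mean in tdT+GFP+ cells and 8.87% in tdT-GFP+ cells, the narrowest of the family in tdT+GFP+ cells. Igf1r thus had a log2 estimate of -0.01 (SE 0.09, adjusted p = 0.961). Its 95% interval, taken as a fold, ran from 0.855 to 1.15.

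The gene for the clearance receptor, Igf2r, was likewise close in both populations (ENSMUSG00000023830.14, chromosome 17, 12682406 to 12769664, minus strand). It had 172, 185 and 156 CPM in tdT+GFP+ libraries and 181, 135 and 165 CPM in tdT-GFP+ libraries. For Igf2r the log2 estimate was 0.09 (SE 0.13, adjusted p = 0.767), with an interval from 0.867 to 1.31 as a fold. Airn, the noncoding RNA that overlaps Igf2r on the opposite strand, had 98, 100 and 75 counts in tdT+GFP+ libraries and 65, 73 and 75 in tdT-GFP+ libraries. These are small beside the 3626 to 5741 counts of Igf2r.

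Igfbp2 had the highest positive fold change of the family over all libraries, with wide scatter (ENSMUSG00000039323.18, chromosome 1, 72824503 to 72852474, plus strand). It had 26.1, 14.2 and 33.7 CPM in tdT+GFP+ libraries 1, 2 and 3, against 20.8, 17.3 and 7.01 CPM in tdT-GFP+ libraries 1, 2 and 3. The groups overlapped, as tdT+GFP+ library 2 lay below 2 of the tdT-GFP+ libraries. Its log2 fold change was estimated at 0.71, with a 95% interval from -0.39 to 1.81 (SE 0.46, adjusted p = 0.556). Kidney 3 alone had a log2 ratio of 2.27, and without both its libraries the log2 fold change was 0.08. It was 0.37 without tdT-GFP+ library 3, 0.42 without tdT+GFP+ library 3 and 1.09 without both libraries of kidney 2.

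Igfbp5 is the neighbour of Igfbp2 on chromosome 1, with 5457 bases between their ends (ENSMUSG00000026185.8, 72857932 to 72874884, minus strand). IGFBP5 binds extracellular matrix and is known from fibrotic tissue. It had 1344, 1737 and 1697 CPM in tdT+GFP+ libraries and 1937, 1763 and 1686 CPM in tdT-GFP+ libraries. The spread within the groups was 13.6% of the mean in tdT+GFP+ cells and 7.16% in tdT-GFP+ cells, against 39.9% and 47.7% for Igfbp2. The log2 estimate for Igfbp5 was -0.17 (SE 0.14, adjusted p = 0.610), and its interval ran from 0.708 to 1.11 as a fold. It was -0.063 without tdT+GFP+ library 1, -0.10 without tdT-GFP+ library 1 and 0.010 without both. These neighbouring genes thus had fold changes of opposite sign, neither past the threshold, and the difference between them was not tested.

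Igfbp4, the gene of a binding protein that mainly restrains IGF action, had lower values in most tdT+GFP+ libraries (ENSMUSG00000017493.12, chromosome 11, 99041244 to 99054392, plus strand). It had 343, 479 and 378 CPM in tdT+GFP+ libraries and 466, 464 and 515 CPM in tdT-GFP+ libraries. Libraries 1 and 3 of tdT+GFP+ cells lay below all tdT-GFP+ libraries, and library 2 lay among them. The log2 estimate for Igfbp4 was -0.27, with a 95% interval from -0.60 to 0.06 (SE 0.14, adjusted p = 0.499). It was -0.45 without both libraries of kidney 2, -0.42 without tdT+GFP+ library 2, -0.17 without tdT+GFP+ library 1, -0.18 without both libraries of kidney 1 and -0.18 without both of kidney 3.

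Igfbp3 encodes the main IGF carrier of blood plasma and lies 3539 bases from Igfbp1 (ENSMUSG00000020427.11, chromosome 11, 7206086 to 7213923, minus strand). It had 312, 269 and 275 CPM in tdT+GFP+ libraries and 228, 387 and 263 CPM in tdT-GFP+ libraries. The tdT+GFP+ values all lay inside the tdT-GFP+ range. For Igfbp3 the log2 estimate was -0.04 (SE 0.20, adjusted p = 0.951), with an interval from 0.699 to 1.36 as a fold. Its neighbour Igfbp1, a gene of liver above all, was at the edge of detection with 3 to 10 counts a library.

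Igfbp6, a marker of some fibroblasts, was the lowest binding protein gene by mean CPM (ENSMUSG00000023046.6, chromosome 15, 102144362 to 102149511, plus strand). It had 8.67, 13.1 and 12.3 CPM in tdT+GFP+ libraries and 16.5, 7.14 and 10.7 CPM in tdT-GFP+ libraries. Here too the tdT+GFP+ values lay inside the tdT-GFP+ range. Igfbp6 had a log2 estimate of -0.02 (SE 0.32, adjusted p = 0.988), and the interval from 0.582 to 1.68 as a fold leaves room for a change of that size in either direction.

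Igfbp7, which is secreted into matrix and is known as a marker of vessels and of injured kidney tubule, was close in both populations (ENSMUSG00000036256.13, chromosome 5, 77349240 to 77408041, minus strand). It had 3894, 3799 and 4695 CPM in tdT+GFP+ libraries and 4260, 4831 and 3563 CPM in tdT-GFP+ libraries. The highest and the lowest library were both tdT-GFP+. The log2 estimate for Igfbp7 was -0.03 (SE 0.16, adjusted p = 0.951), with an interval from 0.749 to 1.28 as a fold. The end of Igfbp7 overlaps the end of Polr2b by 85 bases on opposite strands.

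**Figure D4:**
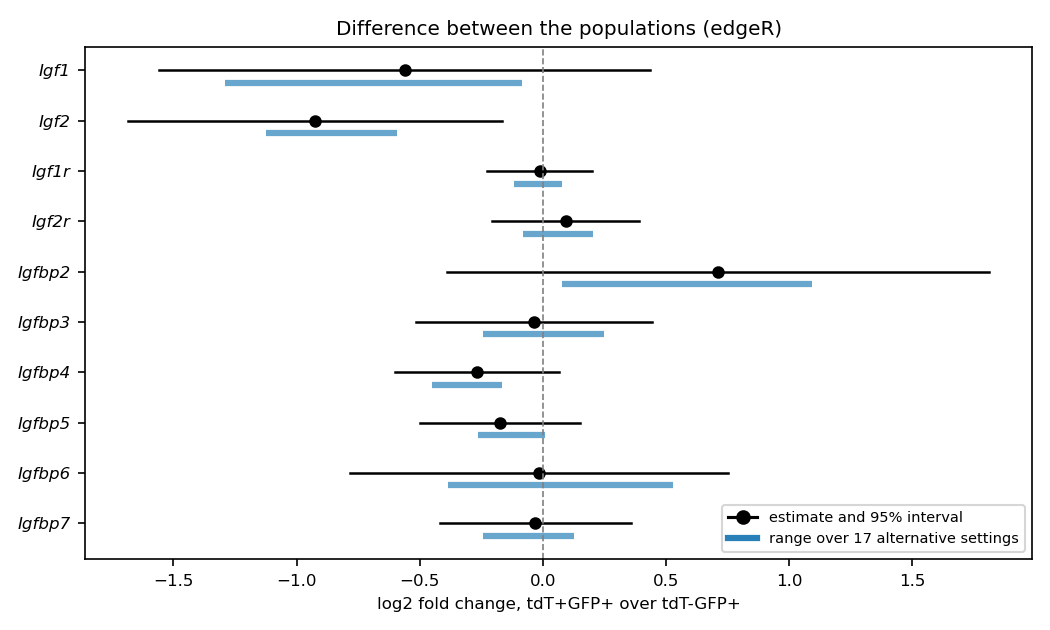
Log2 fold change of tdT+GFP+ over tdT-GFP+ cells (x axis) for the 10 genes, with black points and lines for the edgeR estimate and its 95% interval, and blue bars for the lowest to highest estimate over 17 alternative settings. The Igf2 interval, -1.68 to -0.16, is the 1 interval of 10 that leaves out 0, and its adjusted p was 0.438.

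The genes that release or restrain IGFs outside the cell gave no call either. Of 11 such genes beyond the family, 8 could be tested, with 6 positive and 2 negative log2 fold changes (median 0.17) and 0 past the threshold. Igfbp1, Igfbpl1 and Adam28 did not pass the filter. Adam9, the gene of a membrane protease, averaged 233 ± 25.0 CPM in tdT+GFP+ cells, against 176 ± 27.7 in tdT-GFP+ cells (log2 fold change 0.40, SE 0.14, adjusted p = 0.438). Adam12, whose product cuts IGFBP3 and IGFBP5, averaged 551 ± 13.7 CPM in tdT+GFP+ cells, against 485 ± 68.4 in tdT-GFP+ cells, without overlap (0.18, SE 0.12, adjusted p = 0.561). Pappa2, the gene of a protease of IGFBP3 and IGFBP5, averaged 3.79 ± 2.43 CPM in tdT+GFP+ cells, against 1.81 ± 0.883 in tdT-GFP+ cells (1.06, SE 0.59, adjusted p = 0.518). Stc2, which encodes an inhibitor of such proteases, had a log2 estimate of -0.39 (SE 0.22, adjusted p = 0.514).

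The insulin receptor genes and the signalling genes downstream of IGF and insulin lay in a narrow band. Of 27 genes tested, 18 had positive and 9 negative log2 fold changes, from -0.26 to 0.24 with a median of 0.07, and 0 passed the threshold. The lowest was Foxo1, a transcription factor gene whose product is held out of the nucleus by AKT, with 48.5 ± 4.26 CPM in tdT+GFP+ cells, against 58.0 ± 5.91 in tdT-GFP+ cells (adjusted p = 0.455). The highest was Rps6kb1, the gene of the ribosomal S6 kinase, with 38.6 ± 3.36 CPM in tdT+GFP+ cells, against 32.7 ± 2.75 in tdT-GFP+ cells (adjusted p = 0.464). Foxo4 and the PI3-kinase subunit gene Pik3r2 had log2 estimates of -0.14 and -0.15 (adjusted p = 0.549 and 0.550).

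H19 with regulators of Igf2, and genes that sort the other cargo of IGF2R, gave no call. Of 6 genes in the first list, which holds H19, Plagl1 and Hmga2 beside mRNA-binding protein genes, 4 had positive and 2 negative values and 0 passed. The mRNA-binding protein genes Igf2bp2, Igf2bp3 and Igf2bp1 had log2 estimates of 0.21, 0.40 and 0.28 (adjusted p = 0.497, 0.601 and 0.673). Of 11 genes of mannose 6-phosphate sorting and its lysosomal cargo, 9 had positive and 2 negative values (median 0.21), and 0 passed. M6pr, the gene of the smaller mannose 6-phosphate receptor, averaged 214 ± 15.2 CPM in tdT+GFP+ cells, against 172 ± 13.4 in tdT-GFP+ cells, without overlap (0.32, SE 0.09, adjusted p = 0.414). The cathepsin genes Ctsl and Ctsb had log2 estimates of 0.28 and 0.34 (adjusted p = 0.471 and 0.558).

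Of 6 growth hormone pathway genes, 2 had positive and 4 negative values, and 0 passed. Growth hormone drives Igf1 in liver and other tissues through JAK2 and STAT5. Jak2 averaged 133 ± 10.1 CPM in tdT+GFP+ cells, against 103 ± 21.1 in tdT-GFP+ cells, without overlap (log2 fold change 0.38, SE 0.15, adjusted p = 0.460). Cish and Socs2, feedback inhibitor genes of this pathway, had -0.47 (SE 0.20, adjusted p = 0.466) and -0.05 (SE 0.08, adjusted p = 0.839), and Stat5b had -0.06 (adjusted p = 0.752). Groups without overlap occurred in 15.8% of all genes tested, counting both directions. In the 5 lists, in the order given, they occurred in 1 of 8, 1 of 27, 2 of 6, 2 of 11 and 1 of 6 genes tested. The genes were Adam12, Foxo1, Igf2bp2, Igf2bp3, M6pr, Ctsl and Jak2, with Foxo1 alone lower in tdT+GFP+ cells. The 61 genes of these 5 lists were called by edgeR in 0 cases and by DESeq2 in 0 cases. At an unadjusted edgeR p under 0.05 there were Adam9, Foxo1, Rps6kb1, Jak2 and M6pr. These were 1 of 8, 2 of 27, 0 of 6, 1 of 11 and 1 of 6 genes tested in the lists, in the order given. Over all genes tested 10.7% met this level, counting both directions.

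Markers of other cell types differed between libraries alongside some members. The defining myofibroblast markers (Acta2, whose reporter was sorted on, Pdgfrb and Col1a1) were abundant in all 6 libraries, with Acta2 at 1416 to 1747 CPM in tdT+GFP+ cells and 943 to 1588 CPM in tdT-GFP+ cells. Markers of endothelium, mural cells, macrophages, tubule and podocytes were present too, and none of their defining markers was at 0. The 14 endothelial markers had negative fold changes in 14 of 14 cases, and their sum was 1347 to 1831 CPM in tdT+GFP+ libraries and 2213 to 3282 CPM in tdT-GFP+ libraries. The 9 mural markers, from pericytes and vascular smooth muscle, were negative in 9 of 9 cases, with sums of 811 to 1158 CPM in tdT+GFP+ libraries and 1183 to 2390 CPM in tdT-GFP+ libraries. Of these lists edgeR called 0 genes and DESeq2 called 10 of 14 endothelial and 3 of 9 mural genes lower, or 8 and 1 in its model with a kidney term. Over all genes DESeq2 called 1.93%, and 1.95% with that term. It also called 1 of 12 tubule and 1 of 5 podocyte markers, or 4 and 1 with that term, and 0 of 10 macrophage markers in either model. The 5 podocyte markers summed to 395 to 469 CPM in tdT+GFP+ libraries and 483 to 602 CPM in tdT-GFP+ libraries, with 2 positive and 3 negative values, and this sum too was highest in tdT-GFP+ library 3. The sums of the endothelial, mural and tubule markers, like Igf2, were lowest in tdT+GFP+ library 1 and highest in tdT-GFP+ library 3. In bulk libraries fewer cells of a type and less RNA per cell cannot be told apart, and the part of these cells in the Igf2 values was not tested.

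Macrophages are known to make Igf1, and their 10 markers had positive fold changes in 10 of 10 cases. Their sum was 1198, 1698 and 471 CPM in tdT+GFP+ libraries 1, 2 and 3, against 600, 341 and 1003 CPM in tdT-GFP+ libraries 1, 2 and 3. The library with the highest Igf1 of each group, tdT+GFP+ library 2 and tdT-GFP+ library 3, also had the highest macrophage sum of its group. The endothelial sum (1831 and 3282 CPM) and the mural sum (1158 and 2390 CPM) were highest there too, so the match was not particular to macrophages. The tubule and podocyte sums were highest in library 3 of both groups. Between the groups the directions differed, with a negative log2 fold change for Igf1 and a median of 0.62 for the macrophage markers. Endothelial and mural markers had medians of -1.26 and -0.84, negative like Igf1. The 12 tubule markers summed to 543 to 918 CPM in tdT+GFP+ libraries and 804 to 1873 CPM in tdT-GFP+ libraries, with 2 positive and 10 negative values. The part of these cells in the levels of any member was not tested.

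**Figure D5:**
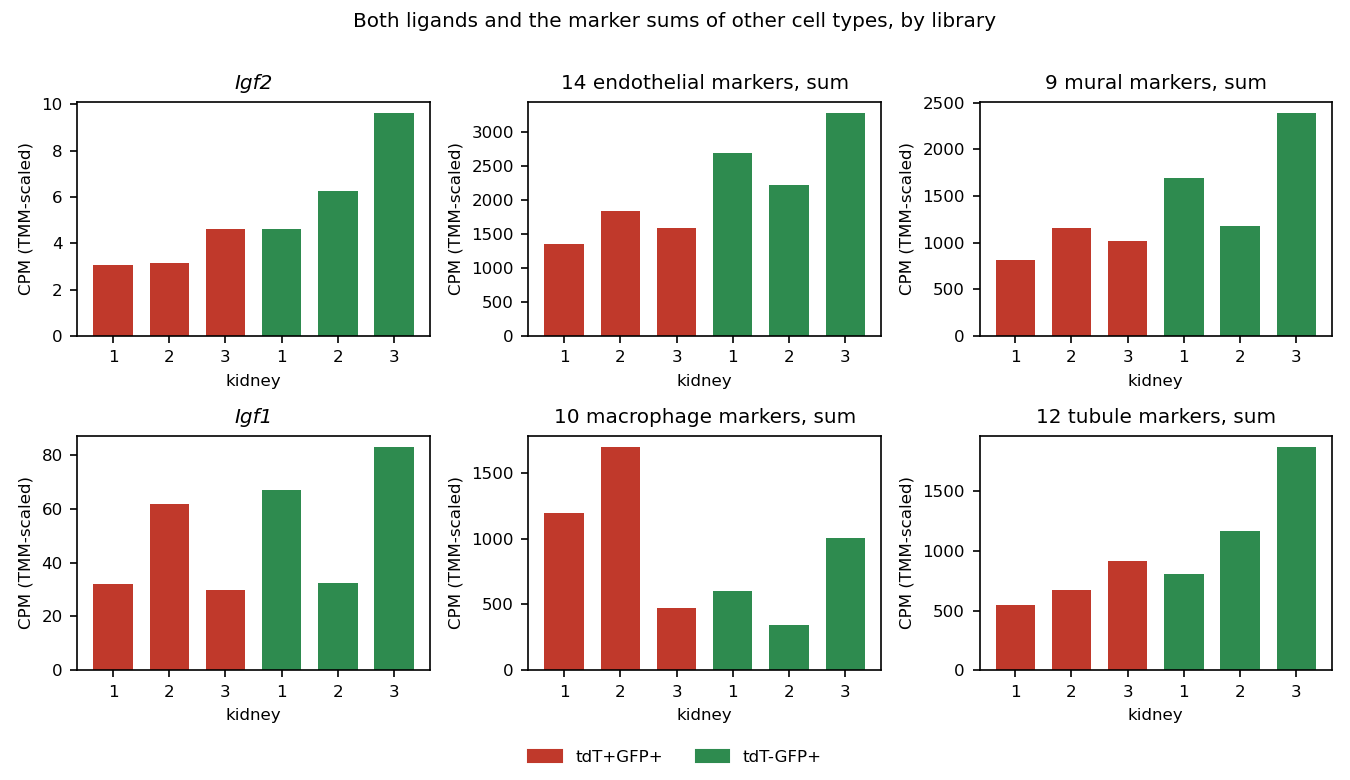
CPM on TMM-scaled library sizes (y axes from 0) in each library, with tdT+GFP+ in red and tdT-GFP+ in green by kidney, for Igf2, Igf1 and the summed markers of 4 other cell types. Igf2 and the endothelial and mural sums are highest in tdT-GFP+ library 3, at 9.64, 3282 and 2390 CPM, and the macrophage sum is highest in tdT+GFP+ library 2, at 1698 CPM.

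Patterns across the libraries were compared by the root mean square difference of log2 CPM after each gene was centred on its own mean, over 6 libraries and 11117 candidate genes. Closest to Igf2 were Kcnq1 and Tenm4, with a difference of 0.09 each. Kcnq1, an imprinted potassium channel gene, had 3.17, 3.19 and 4.87 CPM in tdT+GFP+ libraries and 4.08, 6.35 and 8.97 CPM in tdT-GFP+ libraries. It lies on chromosome 7 as well, 439.5 kb from Igf2. Closest to Igf1 were Tspan2 (0.11) and Cmklr1 (0.13). Closest to Igfbp2 were Inhbb, the gene of an activin subunit (0.19), and Dio2, the gene of a thyroid hormone activating enzyme (0.20). Inhbb had 379, 236 and 608 CPM in tdT+GFP+ libraries and 397, 332 and 156 CPM in tdT-GFP+ libraries.

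The matrix gene Thbs2 was closest to Igfbp6 (0.12), followed by Dusp4 (0.14). The other 6 members varied less between libraries than these 4, and the differences to their closest genes were smaller. Igf1r had Mgat1 and Arrdc4, Igf2r had Wdfy2, and Igfbp7 had Fkbp7 and Gramd3, with differences of 0.020 to 0.035. Igfbp3 had Klf4 and Mterf4, Igfbp4 had Cst3 and Csmd1, and Igfbp5 had Cyb561d2 and Dgke, with differences of 0.05 to 0.07. Among the members themselves the closest pair was Igf1r and Igf2r (0.11), followed by Igfbp4 and Igfbp5 (0.14). The measure is not scaled by the spread of a gene, so genes that vary little come out close whatever their pattern. Igf1r and Igf2r had the smallest SDs of log2 CPM among the members, 0.094 and 0.165. These matches are descriptions, picked as the closest of all candidates over 6 libraries.

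Since the populations were split by a Wnt reporter, the stretches upstream of the members were read for CTTTGA, the core of the sequence that TCF/LEF factors bind, on either strand. RefSeq (GRCm38.p6) gave 14 windows of 250 bases before an annotated start, covering all 10 genes. The core was found in 3 of the 14 windows, 1 each of Igf1, Igf1r and Igf2, and in 13.8% of all 32851 such windows. Shown here are the 60 bases around the match for the signalling receptor and for Igf2, 5′ to 3′ on the gene's strand, with the core in capitals. The Igf1r stretch is chr7:67952141-67952200 on the plus strand, and the Igf2 stretch is chr7:142666991-142667050 on the minus strand, where the match is on the opposite strand and reads TCAAAG.
Igf1r: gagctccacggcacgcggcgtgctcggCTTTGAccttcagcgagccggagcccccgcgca
Igf2: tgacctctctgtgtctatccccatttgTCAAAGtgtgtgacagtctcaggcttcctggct
The match lies 89 bases before the RefSeq start in Igf1r and 207 bases before the most upstream of 4 RefSeq starts in Igf2. The RefSeq start of Igf1r lies upstream of its GENCODE start, 67952827. The counts are per gene, so the start used in these cells was not measured. A match is a run of letters and not a site, and the genes with a match had log2 fold changes of -0.56, -0.01 and -0.92, none past the threshold.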

How the data were processed

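Estimated counts per gene (RSEM expected counts) were deposited for 6 libraries, per the file headers, and all were whole numbers already. As tools, the submitters' processing notes give bcl2fastq (2.20) and STAR (2.6.1) as well as RSEM (1.2.28), with DESeq2 (1.26.0) run in R (3.6.3), and as builds mm10 and GRCh38, with no role stated. The sources used here do not give the annotation release or whether counting used the strand, so overlapping genes may share reads. The 92 ERCC spike-in rows, all at 0, were left out. Gene identifiers matched GENCODE M21 (GRCm38) for 31748 of 31815 genes without version numbers. Positions and exon lengths (the union of annotated exons) come from it.

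Genes were filtered with filterByExpr and scaled by TMM, and edgeR 4.0.16 (glmQLFit, robust; glmQLFTest; group alone) in R 4.3.3 gave the tests, at an adjusted p of 0.05. The procedure was tested on simulated data, with the spread fitted for genes of like level. On average over 3 simulations it recovered 62.3% of 2-fold and 91% of 4-fold changes. Those shares hold for genes at the fitted spread, as single genes were given no scatter around it. In the data the smallest adjusted p from edgeR was 0.388. Log2 fold changes down to -2.19 among the mural markers and -3.17 among the podocyte markers were not called by edgeR. Changes of 2-fold and more can thus be missed here. SEs are the unshrunken coefficient over the square root of F. A count of 3 is 0.0908 to 0.117 CPM, and such floors cover counting error only. DESeq2 1.42.0 and limma-voom 3.58.1 were alternatives. The members and lists were chosen with earlier results of these data known. From each companion list the text names up to 4 genes with the smallest p, and for each member the 2 genes closest in pattern with at least 5 CPM, leaving out predicted models. From the marker lists it names defining markers. Overlapping and neighbouring genes are named for their position. Some genes that this rule would name are not reported here.

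The labels tie libraries of the same number to the same kidney, and this pairs them. Their deviations from the group means correlated by 0.04, -0.58 and -0.30 for kidneys 1, 2 and 3. Library 2 of tdT+GFP+ with library 3 of tdT-GFP+ cells, and library 3 of tdT+GFP+ with library 2 of tdT-GFP+ cells, correlated by 0.448 and 0.444. These deviations sum to 0 within each group and depend on each other, so the values per kidney rest on the labels alone. Nothing in the sources used here says whether each kidney came from a different animal, and p-values then measure only the spread between these libraries.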

Additional observations from a re-analysis of the deposited data

How the results depend on the processing

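For the members, 17 alternatives gave 0 calls at an adjusted p under 0.05. Over all genes edgeR and limma-voom gave 0 calls under each setting, while DESeq2 called 281 genes and, with the kidney as a replicate block, 278. With the replicate block in edgeR 0 genes and 0 members were called, and the block changed no member's call. The negative fold changes of Igf1, Igf2 and Igfbp4 and the positive one of Igfbp2 kept their sign under all 17, within -1.29 to -0.08 for Igf1, -1.13 to -0.59 for Igf2, 0.08 to 1.09 for Igfbp2 and -0.45 to -0.17 for Igfbp4. The other 6 had estimates between -0.17 and 0.09 with all libraries, and each turned sign in 1 or more settings. Igfbp5 kept its sign in 16 of 17, while Igfbp6 ran from -0.39 without kidney 2 to 0.53 without kidney 1. The cause was not tested. Igfbp6 turned to 0.011 in limma-voom, 0.048 with the replicate block in edgeR and 0.049 with it in DESeq2. Leaving out 1 library at a time gave -0.093 to 0.037 for Igf1r, -0.0225 to 0.20 for Igf2r, -0.18 to 0.21 for Igfbp3, -0.24 to -0.063 for Igfbp5, -0.27 to 0.37 for Igfbp6 and -0.14 to 0.071 for Igfbp7. Without kidney 1 the values were 0.077 for Igf1r, 0.010 for Igfbp5, 0.53 for Igfbp6 and 0.033 for Igfbp7. Without kidney 2 they were -0.081 for Igf2r, 0.25 for Igfbp3 and 0.13 for Igfbp7, and without kidney 3 Igf1r had 0.014. On raw library totals the Igf2 values of the groups overlapped and those of Igfbp5 did not. With the longest transcript as the length, Igfbp3 took place 3 and Igfbp4 place 4, and Igf1r took place 7 and Igfbp6 place 8. Igf2 rests on 98 to 260 counts a library, and the other 9 genes on 189 or more. With kidney numbers 2 and 3 exchanged in 1 of the sorts, an alternative chosen after seeing the data, 4 members had the same sign in all 3 pairs (Igf1, Igf2 and Igfbp4 lower, Igfbp2 higher), against 1 by the labels. Of all genes tested 42.9% did so with the exchange and 32.5% by the labels.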
